A study of Tachycineta bicolor with 14 samples.

Results

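RNA sequencing of the whole brain was available for 14 embryos of the tree swallow (Tachycineta bicolor), a songbird, and 5 of these embryos were set against the other 9. The 5 comprise embryos 3 and 7 of the high-density group together with embryos 3, 4 and 6 of the low-density group. The other 9 comprise high-density embryos 1, 2, 4, 5 and 6 together with low-density embryos 1, 2, 5 and 7. The division was first seen in these same data, in genes that stood at one of a pair of levels in every embryo, and no label gives it. Every difference in expression between the 5 and the 9 is therefore a description with no p-value, and only library totals and numbers of genes detected were tested between the sets. All 14 brains came from embryonic day 11. The mothers of 7 embryos bred at high density and those of the other 7 at low density, under natural variation, and embryos are numbered within each density by accession. The labels do not say whether embryos came from separate nests.

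Birds have ZW sex determination: females carry one Z and one W chromosome, and males carry a pair of Z chromosomes. Genes found on the W alone are expressed in females and not in males. Dosage compensation of the Z is incomplete in birds, so many Z genes are expressed at a lower level in females, while the rest of the genome is largely shared. A division of that kind would show a small number of genes present in one set only, and a larger number at a modestly lower level in that same set. Sex is not among the labels, and the files place no gene on a chromosome. Whether the 5 and the 9 differ in sex was not tested. Both features were counted over all genes.

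Libraries held 5219020 ± 1151550 estimated counts in the 5 (SD, n = 5) and 5407840 ± 973721 in the 9 (SD, n = 9), and the totals of the sets did not differ beyond the scatter of their members (p = 0.746 by a two-sided exact permutation test, 0.746 after adjustment for 2 measures). The number of genes with a count was 12092 ± 471 in the 5 and 12222 ± 160 in the 9 (p = 0.523 by the same exact test, 0.746 after adjustment). A few libraries stood apart. High-density embryo 7, one of the 5, had 11308 genes detected, against 11881 to 12529 in the other 13. In high-density embryos 2 and 4, both among the 9, the most abundant gene took 1.18% and 1.53% of counts, against 2.63% to 4.86% in the other 12. Several of the counts below, though not all, are repeated without some or all of these libraries. In bulk tissue, fewer cells of a type and less RNA per cell cannot be told apart.

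A small group of genes was present in the 5 and almost absent from the 9. Over all 13375 genes of the file, 20 genes (0.15%) had at least 10 counts in each of the 5 embryos and at most 3 counts in each of the 9. In the other direction 0 genes (0%) met the same limits. Summed over the 20 genes, the 5 embryos held 301.7 CPM (CPM, read counts scaled to a common library size; high-density embryo 3), 434 CPM (high-density embryo 7), 339 CPM (low-density embryo 3), 317 CPM (low-density embryo 4) and 306 CPM (low-density embryo 6). The 9 other embryos ranged from 0.138 to 1.35 CPM, with a median of 0.652 CPM. In counts, the lowest of the 5 embryos held 1245 and the highest of the 9 held 7. Scaling raised the level of high-density embryo 7 most, and without the scaling factors the 5 held 345, 320.4, 329, 321 and 299 CPM in the same order. All 20 genes had a count in each of the 5 embryos, and no embryo of the 9 had a count for more than 4 of them.

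**Figure D1:**
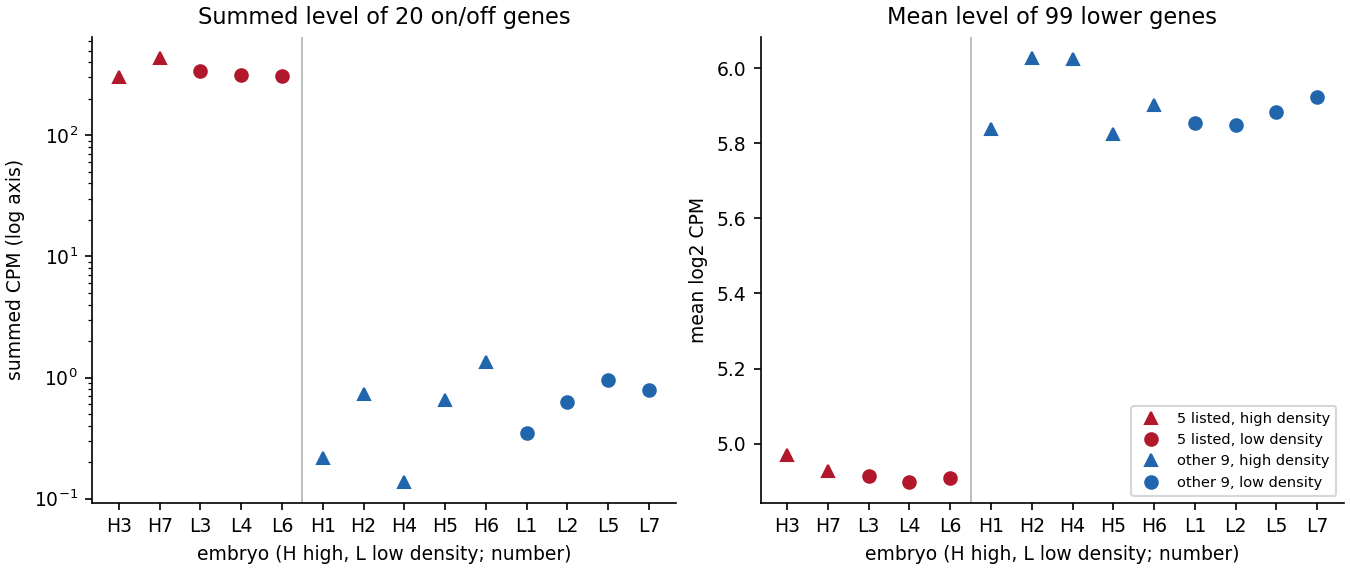
Left, summed CPM of the 20 genes present in the 5 listed embryos and almost absent from the 9, on a log axis; right, mean log2 CPM of the 99 genes whose 5 values all lay below the 9. Each point is 1 embryo, red for the 5 and blue for the 9, triangles for high and circles for low density; the 5 sit at 301.7 to 434 CPM on the left and at 4.90 to 4.97 on the right, apart from all 9 others (at most 1.35 CPM, and 5.82 to 6.03).

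Of the 20 genes, 10 had 0 counts in all 9 embryos. Against a limit of 3 counts over the 9 libraries together, which corresponds to 0.0599 CPM, these 10 genes were at least 54.7-fold to at least 451-fold higher in the 5. A further 7 genes had 1 to 3 counts over the 9 libraries, and 3 genes had more than 3. The 9 libraries held 31 counts of the 20 genes in all. The 20 genes were of low to moderate abundance in the 5 embryos, with means from 3.28 to 100.6 CPM and a median of 8.20 CPM. The most abundant of them stood at 81.2, 134.6, 120.1, 81.3 and 85.7 CPM in the 5, taken in the order above, and at 0 to 0.265 CPM in the 9. The least abundant one had 11, 10, 19, 25 and 15 counts in the 5 and 0 counts in all 9. It lies at the limit of 10 counts and was the only gene of the 20 that the expression filter of the fits dropped. None of the 20 matched another gene count for count across the embryos. Whether reads were divided between similar genes was not tested. With limits of at most 10 and at least 30 counts, 12 genes were found, 9 of the 20 and 3 others, and again 0 stood in the other direction. The 20 genes became 22 without high-density embryos 2 and 4, and 25 without high-density embryos 2, 4 and 7.

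**Figure D2:**
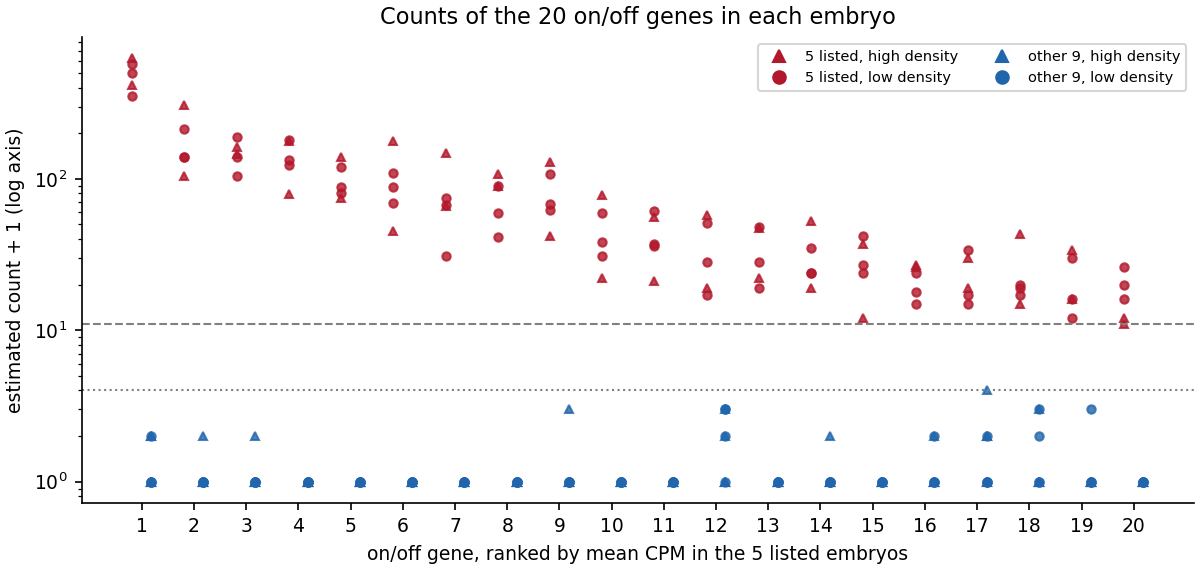
Estimated counts plus 1 on a log axis for the 20 genes, ranked by their mean CPM in the 5 listed embryos. Each point is 1 embryo, red for the 5 and blue for the 9; the dashed line marks 10 counts and the dotted line 3 counts, and for every gene the 5 lie at or above the dashed line and the 9 at or below the dotted one.

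The genes with the largest differences were more abundant than these 20 and had a few counts in some of the 9 embryos. The file pairs their identifiers with no gene name, so what they encode is not known here. tree_swallow004925 stood at 636 and 1032.5 CPM in high-density embryos 3 and 7 and at 834, 729 and 711 CPM in low-density embryos 3, 4 and 6. It was at 2.21 CPM in high-density embryo 2, 1.16 CPM in high-density embryo 6, 0.238 CPM in low-density embryo 5 and 0 CPM in the other 6. The 5 embryos averaged 789 ± 153 CPM and the 9 averaged 0.401 ± 0.779 CPM (SD, n = 5 and 9), a ratio of 1966 and a fitted log2 fold change of 11.00 ± 0.67 (SE, density in the model). tree_swallow000164 stood at 221 and 328 CPM in high-density embryos 3 and 7 and at 737, 385 and 492.95 CPM in the 3 low-density embryos of the 5. In the 9 it was at 1.35 CPM in high-density embryo 6, at 0.886 CPM in high-density embryo 2 and at 0 CPM in the other 7. Its log2 fold change was 10.49 ± 0.65 (SE). The values of the 5 and the 9 were far from overlap in both genes, while among the 5 the highest level of tree_swallow000164 was 737 CPM and the lowest 221 CPM. Another 5 genes were at least 16-fold higher in the 5 but held more than 3 counts in an embryo of the 9 or missed 10 counts in an embryo of the 5. The fitted log2 fold change of tree_swallow004925 was 11.85 without high-density embryos 2 and 4, and that of tree_swallow000164 was 10.86.

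**Figure D3:**
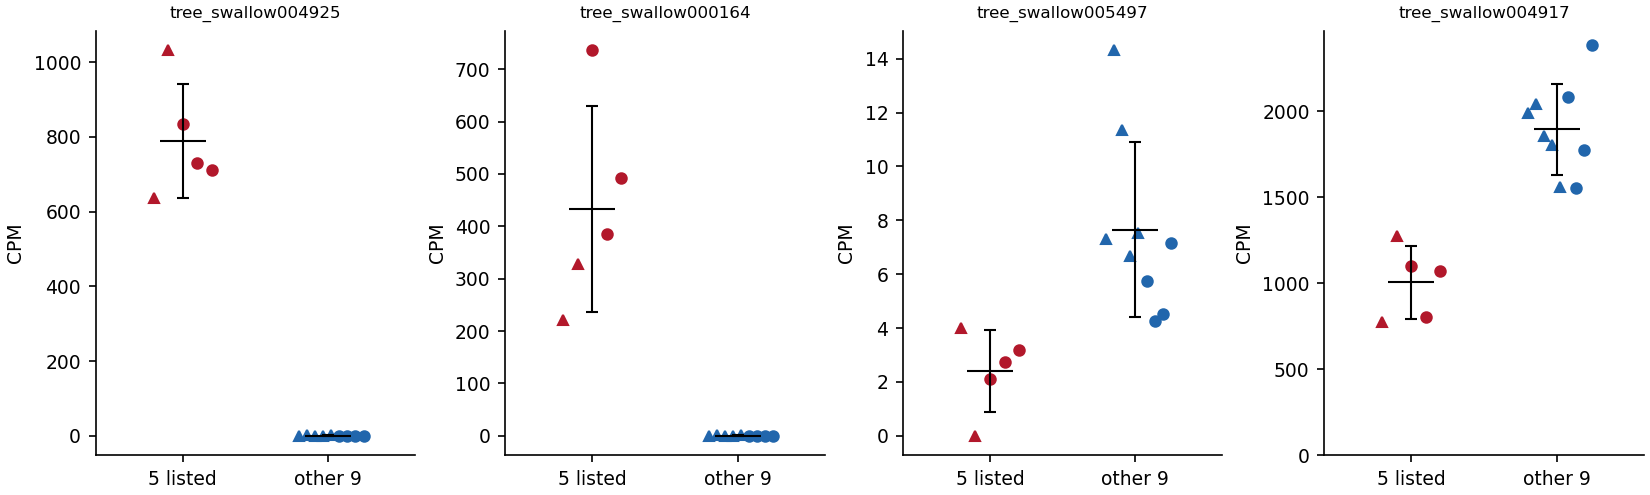
CPM per embryo of the 2 genes with the largest increase in the 5 listed embryos (left), the gene with the largest decrease and the most abundant gene that was lower (right). Points are embryos (triangles high, circles low density), and bars are means with SD, n = 5 and 9; in each gene the 5 and the 9 do not overlap, by a wide margin for tree_swallow004925 and by a small one for tree_swallow005497.

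Over the 11087 genes that passed the expression filter, 52 (0.469%) had all 5 values above all 9, and 99 (0.893%) had all 5 values below all 9. The 52 higher genes covered a wide range of sizes. Of these, 26 were higher by a fitted 16-fold or more, 9 by 4-fold to 16-fold and 17 by less than 4-fold. No tested gene was lower by 16-fold or more (0 genes, 0%), against 26 (0.235%) higher by that much. The median log2 fold change of the 52 was 4.17. Setting the genes at 0 in all 9 embryos to their bounds could not move it, because these bounds also lie above the median. The 17 genes with the smaller increases had a median ratio of 2.45 and medians of 41.3 CPM in the 5 and 17.996 CPM in the 9, so their expression in the 9 was well above 0. The 9 genes in between stood at medians of 17.1 CPM in the 5 and 1.301 CPM in the 9. The expression filter was met through the 5 alone by 25 of the 52 genes, which therefore had to differ between the sets.

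The 99 lower genes were much more alike in size. The absence of overlap favours larger differences and smaller spreads, so this likeness is partly set by how the genes were chosen. Their log2 fold changes had a median of -0.98, quartiles of -1.07 and -0.88, and a range from -1.47 to -0.19, whereas all tested genes together had a median of 0.01 and quartiles of -0.17 and 0.18. As a ratio of mean CPM, 5 over 9, the median was 0.506 with quartiles of 0.466 and 0.542. The ratio lay between 0.4 and 0.6 in 84 of the 99 genes and under 0.4 in 6. The median SE of a log2 fold change in this group was 0.17, and 71 of the 99 values lay within their own SE of the group's median. The lower genes were expressed in both sets: their median levels were 33.9 CPM in the 5 and 71.9 CPM in the 9, and 90 of the 99 had a mean of 10 CPM or more. Together they took 0.573 ± 0.053% of counts in the 5 and 1.18 ± 0.08% in the 9 (SD, n = 5 and 9). Among the 99, the median log2 fold change was -1.09 in 22 genes under 20 CPM, -0.93 in 49 genes from 20 to 100 CPM and -0.94 in 28 genes above 100 CPM. The median SE was 0.24 under 20 CPM and 0.16 above 100 CPM. The absence of overlap favours larger decreases where the spread is larger, so these medians do not show how the decrease varies with expression level. None of the 99 passed the expression filter through the 9 alone, and none matched another gene count for count across the embryos. Division of reads between similar genes was not tested for the 99 either.

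That each of the 5 embryos held the present genes and the lower level of the 99 is fixed by how these genes were chosen. Their sizes are partly set by the same choice, which favours larger differences and smaller spreads. The mean log2 CPM of the 99 genes was 4.97, 4.93, 4.91, 4.90 and 4.91 in the 5, in the order above, and ran from 5.82 to 6.03 in the 9 with a median of 5.88. The 9 spread more widely than the 5, and their highest values were the 6.03 of both high-density embryos 2 and 4. The most abundant of the lower genes, tree_swallow004917, stood at 773 and 1277 CPM in high-density embryos 3 and 7 and at 1102, 805 and 1073 CPM in low-density embryos 3, 4 and 6. The 9 others lay between 1554 and 2388 CPM. Its log2 fold change was -0.92 ± 0.17 (SE). The largest decrease among the 99 was that of tree_swallow005497, a gene of low abundance. It was at 4.01 and 0 CPM in high-density embryos 3 and 7 and at 2.10, 2.75 and 3.19 CPM in the 3 low-density embryos of the 5, against 4.26 to 14.3 CPM in the 9. Its log2 fold change was -1.47 ± 0.49 (SE) over all embryos and -0.95 without high-density embryos 2, 4 and 7. The highest value of the 5 and the lowest of the 9 were 0.24 log2 units apart in the median lower gene, and 0.0006 in the closest one.

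The number of lower genes without overlap changed with the embryos left out. It was 127 without high-density embryos 2 and 4, 151 without high-density embryo 3 and 173 without high-density embryos 2, 4 and 7, where the higher genes numbered 55, 75 and 63. The median log2 fold change of the 99 moved little, to -0.94 without embryos 2 and 4 and to -0.97 without embryos 2, 4 and 7. An adjusted p under 0.05 in edgeR's quasi-likelihood fit, used only as a mark of separation because the split came from these genes, set apart 55 higher genes (0.496%) and 110 lower genes (0.992%), with 48 of the 52 and 82 of the 99 among them. With the code prefix of the samples in place of density, 59 lower genes were set apart. By the same mark 73 and 67 lower genes were set apart without low-density embryo 4 and without low-density embryo 6.

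Among genes of small spread, an asymmetry in the same direction was visible without starting from separated genes. Of all tested genes, 2123 were steady, meaning a mean of 10 CPM or more and a standard deviation of log2 CPM under 0.3 among embryos of the same set and density. Their differences between the sets, averaged over the densities, were mostly small: 1868 of them lay within 0.25 log2 units of 0. Apart from this centre, a second group of genes lay near -0.9, with 20 genes between -1 and -0.9, 17 between -0.9 and -0.8 and 8 in each of the bins from -0.6 to -0.4. Differences of 0.7 to 1.3 log2 units were found downward in 66 steady genes (3.11%) and upward in 4 (0.188%). All 66 were lower at both densities, and 60 were without overlap. The limits on the mean difference and on the spread favour both of these counts. Limits of steadiness and size were set with these values already known. A band drawn in by 0.05 at each end, which was tried first, held 61 lower and 4 higher genes. With a limit of 0.2 or 0.4 on the standard deviation the counts were 20 lower and 0 higher, or 106 lower and 6 higher. Without high-density embryo 3, which leaves high-density embryo 7 alone for the 5 at high density, they were 89 lower and 43 higher, and without high-density embryos 2, 4 and 7 they were 91 lower and 2 higher.

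**Figure D4:**
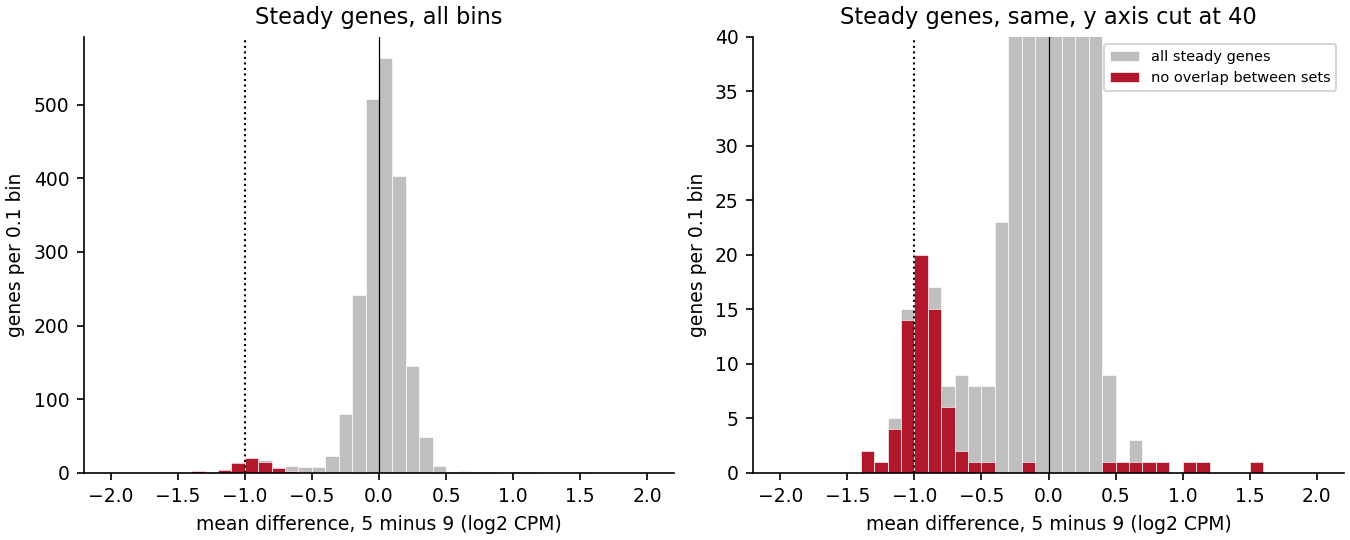
Mean difference between the 5 and the 9 embryos (log2 CPM, averaged over densities) in the 2123 steady genes, in bins of 0.1; the right panel repeats the left with the y axis cut at 40 genes. Grey bars are all steady genes and red bars those without overlap between the sets; the dotted line marks -1, and a second group of 66 genes between -1.3 and -0.7 has 4 counterparts on the other side.

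The differences were seen at both densities. At high density, where 2 of the 5 and 5 of the 9 embryos were compared, the 99 lower genes had a median difference of -0.95 log2 CPM, and at low density, with 3 and 4 embryos, -0.97. For the 52 higher genes the medians were 3.69 at high and 3.39 at low density. The absence of overlap fixes the direction of these genes at each density, and it favours larger sizes. Genes can instead be picked at one density and read at the other, which share no embryo, although the split itself was picked from both. The limits that define steady genes also used embryos of both densities. A small spread at the density of reading was thus part of the choice, and it favours a repeated absence of overlap. At high density alone, 58 steady genes (2.73%) were lower in the 5 by 0.75 log2 units or more without overlap. At low density 56 of these 58 were lower as well, with a median difference of -0.94 log2 CPM, and 55 were again without overlap, where 51.5% of all steady genes were lower and 6.50% were lower without overlap. Picked at low density, 68 steady genes (3.2%) were all lower at high density, with a median difference of -0.90, and 61 were again without overlap, where 42.3% of all steady genes were lower and 6.88% were lower without overlap. For upward differences, 5 steady genes (0.236%) picked at low density were all higher at high density, where 57.7% of all steady genes were. Of 15 (0.707%) picked at high density, 9 (60%) were higher at low density, near the 48.5% of all steady genes that were. Again without overlap at the other density were all 5 and 8 of the 15 (53.3%). Over all steady genes, 6.26% and 2.17% were higher without overlap there.

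Without the limit on spread, the densities were less alike, most of all upward. Of 229 genes (2.07%) picked as lower at high density, 169 (73.8%) were lower at low density, and of 243 (2.19%) picked as lower at low density, 213 (87.7%) were lower at high density. The matching shares over all tested genes were 48.0% and 46.9%. Again without overlap at the other density were 106 of the 229 (46.3%) and 116 of the 243 (47.7%). Over all tested genes, 3.73% and 3.36% were lower without overlap there. Of 99 genes (0.893%) picked as higher at low density, 75 (75.8%) were higher at high density, where 53.1% of all tested genes were. Of 219 genes (1.98%) picked as higher at high density, 112 (51.1%) were higher at low density, where 52.0% of all tested genes were, and the median difference at low density was 0.04. The high-density comparison holds high-density embryos 2, 4 and 7, the libraries that stood apart, and their part in these numbers was not tested.

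**Figure D5:**
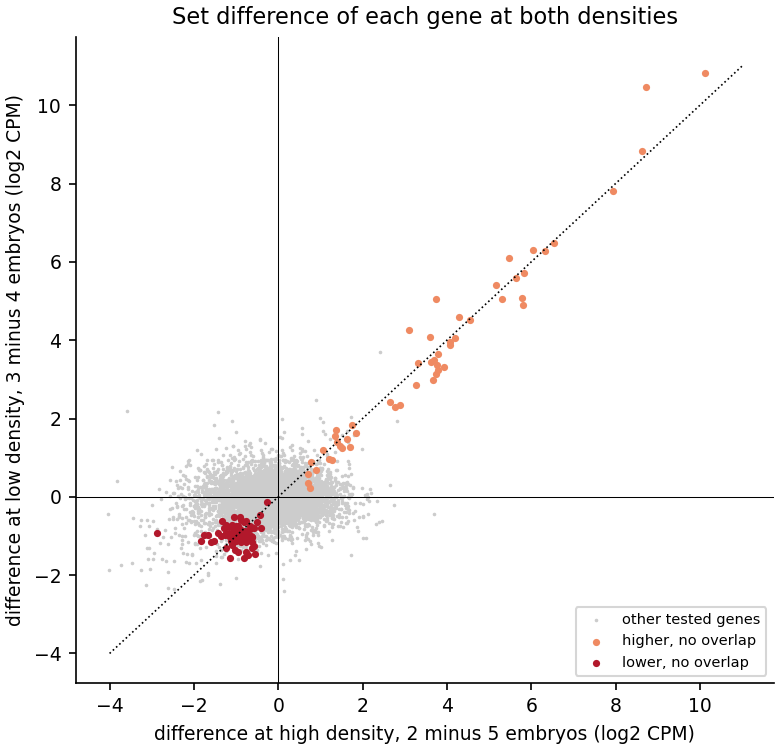
Difference between the 5 and the 9 embryos for each of 11087 tested genes at high density (x axis, 2 against 5 embryos) and at low density (y axis, 3 against 4 embryos), in log2 CPM. Orange points are the 52 higher and red points the 99 lower genes without overlap; the orange points follow the dotted line of equal differences from below 1 to above 10, and the red points gather near -0.95 and -0.97.

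A direct test found no gene whose difference between the sets depended on density. The interaction of set and density passed an adjusted p of 0.05 in 0 of 11087 genes (0%) by edgeR's quasi-likelihood test, and DESeq2 and limma-voom also called 0. The split was seen in genes at one of a pair of levels in every embryo of either density. That choice favours a small interaction in those genes. At an unadjusted p under 0.05 edgeR gave 296 genes (2.67%), among them 3 of the 99 lower and 1 of the 52 higher genes. The absence of overlap across both densities favours few such genes among the 99 and the 52. Without high-density embryo 3 the edgeR test called 1 gene. The high-density side of this test holds 2 embryos of the 5, so 0 calls do not show that the differences were equal at both densities.

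Each of the 5 embryos carries a different letter prefix in its sample code, and each has at least 1 embryo of the same prefix among the 9. The labels do not say what the prefix stands for. Within prefixes, the median difference of the 99 lower genes was -0.95 log2 CPM for high-density embryo 7 (prefix BA), -0.97 for low-density embryo 4 (CC), -0.93 for low-density embryo 3 (CS), -0.80 for high-density embryo 3 (GP) and -1.04 for low-density embryo 6 (SW). The first 4 values compare embryos of the same density, while 2 of the 3 other SW embryos are from high density, and against the single one from low density the SW value was -1.002. The BA comparison rests on high-density embryos 2 and 7, and the SW comparison includes high-density embryo 4, libraries that stood apart. All 99 genes were below in each, which the absence of overlap fixes. The 52 higher genes had medians from 2.98 (CS) to 3.97 (CC), and over all tested genes the medians lay between -0.01 and 0.05. The split therefore crosses 5 of the 6 prefixes as well as both densities.

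Within the 5, the embryos differed little from each other in these genes, which the absence of overlap favours. The median standard deviation of log2 CPM within set and density, pooled over the embryos of both sets and so not of the 5 alone, was 0.26 in the 99 lower genes. Over all tested genes it was 0.48. Relative to the mean of the other 4, the median lower gene ranged from -0.04 log2 CPM in low-density embryo 6 to 0.04 in high-density embryo 3. The 20 present genes varied more, with a median coefficient of variation of 0.254 among the 5 embryos and a range from 0.109 to 0.946. Which embryo was highest depended on the scaling. High-density embryo 7 held the highest level of the 5 in 8 of the 20 genes and the lowest in 4, but the highest in 4 and the lowest in 9 without the scaling factors. On scaled values, high-density embryos 3 and 7 came closest to the 9, with the highest value of the 5 in 29 and 30 of the 99 lower genes. For embryo 7 this too depended on the scaling. As a share of counts, without the factors, the 99 genes took 0.495% in embryo 7, the lowest of the 5, and 0.644% in embryo 3, the highest. From the side of the 9, high-density embryo 1 came closest, holding their lowest value in 25 of the 99.

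Against the whole transcriptome the split was a small part of the differences between embryos. It held 13.2% of the squared distance between embryos over all tested genes, where the density groups held 22.2%, and 9.05% when the 151 genes without overlap were left out. Any division of the embryos into 2 sets holds some share, and the share of an arbitrary division was not calculated. Along the principal components of the 500 most variable genes, the 5 and the 9 overlapped on components 1 and 2. They were apart on component 3, which held 11.5% of the variance, with scores from 8.27 to 23.8 in the 5 and from -24.0 to 6.83 in the 9. The 500 genes include genes that define the split.

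Where the genes of the split lie could be looked at only through their identifier numbers, and the files do not say whether these follow genome position. Only runs of lower genes were counted, and the lower genes did not fall in runs of numbers. Neighbouring pairs of a higher and a lower gene were not counted. In 110 windows of 100 tested genes in identifier order, the median log2 fold change ran from -0.10 to 0.15, and no window held more than 3 of the 99 lower genes, against a mean of 0.9. Of the 99 genes, 2 (2.02%) were followed by another of them, where 0.893% of all tested genes were lower without overlap.

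Densities were compared with and without the set of an embryo as a term. The density labels did not choose the split. Prefixes GP and BA occurred only at high density and CC, CS and CN only at low density, while SW occurred at both. Differences between densities and between prefixes therefore largely cannot be told apart, and the fits took all embryos as independent. With the set as a term, 322 of 11087 genes (2.9%) differed between high and low density at an adjusted p of 0.05 by edgeR's quasi-likelihood test, 297 higher and 25 lower at high density. Without that term 623 genes (5.62%) did, 554 higher and 69 lower. The 623 became 165 to 1245 when any 1 embryo was left out. Whether the set changes the comparison of densities was not tested. Of the 99 lower and of the 52 higher genes of the split, 0 passed the density test with the set as a term. The absence of overlap across both densities favours small differences with density in these genes, so this 0 is partly set by their choice. The 322 changed with the embryo left out and with the method, while 2539 genes (22.9%) had an unadjusted p under 0.05 in the same edgeR test. Leaving out high-density embryo 3, or low-density embryo 2, 5 or 6, gave 0 genes. Leaving out high-density embryo 1, 2 or 4, or low-density embryo 1 or 3, gave 105 to 183, and leaving out high-density embryo 5 or 7 gave 954 or 768. The number was 245 to 314 without high-density embryo 6 or without low-density embryo 4 or 7. Without both high-density embryos 2 and 4 it was 26, and over all embryos limma-voom called 0 and DESeq2 1126.

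The 7 tested entries that carry gene names did not separate the sets. Both entries for the replication-independent histone H3.3 had log2 fold changes near 0 (0.18 ± 0.18 and 0.11 ± 0.19, SE), and those named for histone H2B and H4 genes were at -0.13 ± 0.39 and 0.58 ± 0.38 (SE). HSFY2, a member of the heat shock factor family, was at 0.937 ± 0.919 CPM in the 5 and 1.69 ± 1.02 CPM in the 9 (SD, n = 5 and 9; log2 fold change -0.92 ± 0.78, SE). The values overlapped between the sets. The log2 fold change of the RPL9 pseudogene entry (RPL9 is a ribosomal protein) was 0.27 ± 0.24, and that of Tuba3a, an alpha-tubulin, -0.14 ± 0.44 (SE). Genes of these families have close copies between which counting may divide the reads, so these values are uncertain.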

How the data were processed

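Per the submitters' processing notes, fastp 0.20.1 and Salmon 1.9.0 were used; the transcriptome they were run against is not given in the sources used here. Per the labels' protocols, libraries of polyA RNA came from the xGen kit. The authors deposited a table of 13375 genes with estimated counts for every embryo (3.05% of values not whole, tolerance 1e-06), with totals from 3950419 to 6812901. Columns were matched to samples by the code in the description.

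The members and every limit here were chosen with earlier results of these data known. Estimated counts were rounded, and filterByExpr with the 2 sets as groups (minimum count 10, total 15) kept 11087 genes and removed 2288. TMM factors scaled the libraries. Log2 fold changes, 5 minus 9, come from edgeR 4.0.16 (R 4.3.3) quasi-likelihood fits with density as covariate; standard errors follow from the F statistic. Log2 CPM used a prior count of 2. DESeq2 1.42.0 and limma-voom (limma 3.58.1) were alternatives, beside other scalings, filters and covariates and leaving out embryos. Adjusted p-values are Benjamini-Hochberg over all tested genes. The fits were tested on simulated counts. Libraries were compared over all 2002 assignments of 5 of 14 embryos. A limit of 3 counts covers counting error only. Whether nests were separate is not labelled, and the p-values given reflect the scatter of these samples, which may be technical. The file pairs no identifier with a name apart from 7 entries, so lists of sex-linked and cell type genes could not be applied. Named are the 2 higher genes with the largest log2 fold change, the lower gene with the largest and the lower gene with the highest mean CPM, among genes without overlap, with 1 CPM or more in the higher set and an unchanged sign in each of 14 fits on 13 embryos, and the entries with names.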

Additional observations from a re-analysis of the deposited data

Results flagged for a closer look

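An embryo was noted where it lay far from the others of its set by Dixon's criterion, which was met in 5 of 38 groups of values; chance gives about 1 in 20. High-density embryo 7 had a summed level of the 20 present genes of 434.4 CPM, where the other 4 of the 5 were at 301.7 to 339 CPM. This difference came from the scaling factor of that library, 0.738: without such factors it held 320.4 CPM, inside the 299 to 345 CPM of the other 4. In the same embryo the 52 higher genes took 0.347% of counts, below the 0.423% to 0.441% of the other 4. These shares do not use the scaling factors. With the factors, the mean log2 CPM of the 52 genes was 4.97 in this embryo, above the 4.79 to 4.88 of the other 4. The RPL9 pseudogene entry of high-density embryo 7 stood at 4398 CPM, against 1713 to 2232 CPM, and at 3244 against 1739 to 2165.6 CPM without the factors. Low-density embryo 3 had 2.52 CPM of HSFY2, against 0.13 to 0.737 CPM in the other 4. Among the 9, low-density embryo 7 had 511 CPM of the less abundant H3.3 entry, where the other 8 were at 226 to 342 CPM.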

How the results depend on the processing

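No paired analysis by replicate number was possible because embryos are numbered by accession only; the code prefix, of unstated meaning, was fitted as a block instead. Scaling with RLE or upper-quartile factors, a prior count of 0.5 and the absence of a filter left the counts without overlap within 1.5 times of those given. The median log2 fold change of the 99 lower genes was -0.94 without high-density embryos 2 and 4. That of the higher genes was 3.72 with at least 5 CPM in 5 embryos, a filter that 39 of the 52 passed. For all 52 it was 4.004 without density in the model, 4.40 with the code prefix in its place, 4.33 by limma-voom and 4.24 without high-density embryos 2, 4 and 7, and from 4.06 to 4.41 without any 1 embryo. Lower genes set apart by the adjusted p numbered 59 with the prefix, 184 by DESeq2 and from 67 to 118 without any 1 embryo. Lower genes without overlap numbered 173 without high-density embryos 2, 4 and 7 and from 102 to 151 without any 1 embryo. Genes present in the 5 only numbered 12 with limits of 10 and 30 counts. A window of 200 identifiers held at most 5 lower genes. Steady genes with the difference downward numbered 20 and 106 at limits of 0.2 and 0.4. Upward they numbered 0 at 0.2, 2 without high-density embryos 2, 4 and 7, and from 4 to 43 without any 1 embryo. The interaction gave from 0 to 1 gene without any 1 embryo. Genes that differed with density, with the set as a term, numbered 1126 by DESeq2, 0 by limma-voom, 26 without high-density embryos 2 and 4 and from 0 to 954 without any 1 embryo. Without that term they numbered 1372, 218, 110 and from 165 (without low-density embryo 6) to 1245 (without high-density embryo 7). The difference in library totals, 5 minus 9, was -188815 counts, 193695 without high-density embryos 2 and 4 (exact permutation p = 0.718), 448194 without 2, 4 and 7 (exact permutation p = 0.430), 65683 without high-density embryo 7 and from -570311 to 73326 without any 1 embryo. The cause of these changes was not tested. Fewer embryos make the absence of overlap easier to meet by construction. Depth limits the genes present in the 5 only to those with 10 counts.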
